A study of Saccharomyces cerevisiae with 6 samples.

Results

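The 10 genes described here belong to the general stress response of *Saccharomyces cerevisiae*. They are *MSN2* and *MSN4*, which encode the zinc finger activators of that response, 6 genes that these activators or other stress pathways induce, *XBP1*, *YGP1*, *DDR2*, *SPI1*, *GAD1* and *RTN2*, and 2 genes of hydrophilins, *GRE1* and *SIP18*. They were taken by gene symbol from the platform annotation, and all 10 of the 10 symbols were found among 5656 annotated genes, each represented by 1 probe set, the collection of short probes that together report one transcript. Expression was compared between 3 independent cultures exposed to 70 μM pterostilbene, a growth-inhibiting dose, and 3 independent cultures given 0.25% of the solvent dimethyl sulfoxide (DMSO). Pterostilbene came from a concentrated DMSO stock and no further DMSO is stated for those cultures, so the DMSO content may have differed between the groups and its part was not tested. All cultures grew from a single colony of S288C, the MATα reference strain, which carries the alleles flo8-1, flo1, gal2, mal and mel together with SUC2 and CUP1, in buffered synthetic dextrose medium without added amino acids. Addition was at an absorbance of 0.2 and harvest at 0.5 in both groups, so effects of the compound, of growth rate and of the time to harvest cannot be told apart.

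Msn2p and Msn4p are closely related transcription factors that bind the stress response element in promoters of many genes. In growing cells with ample glucose, protein kinase A keeps them largely in the cytoplasm, and on heat, osmotic, oxidative or nutrient stress they move to the nucleus and activate their targets. This step of their control acts on the proteins. Hydrophilins are small, glycine-rich and very hydrophilic proteins that accumulate when cells lose water and are known to protect other proteins during drying.

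The deposited table held 9335 signals per array, of which 60 were control probe sets, and the remaining 9275 were tested. A signal is the brightness of a probe set on a linear intensity scale after scaling by the authors' software. Median signals were 161.6 to 170.2 on the pterostilbene arrays and 119.1 to 123.4 on the control arrays, and the median gene was 0.22 higher with pterostilbene on the log2 scale. The 9 hybridization controls differed by 1.06-fold between the groups. The 12 poly-A control probe sets, which report bacterial transcripts supplied with the labelling reagents, were 5.11-fold higher on the pterostilbene arrays, and the part of this difference in the results below was not tested. Actin 3′ to 5′ signal ratios, a sign of RNA integrity, were 1.41 to 1.5 with pterostilbene and 1.02 to 1.35 in the controls. As a gauge of background, 16 control probe sets for mouse genes, for bacterial sequences and for antisense strands were used. Their highest signal on an array was 25.5 to 40.9 with pterostilbene and 29.8 to 36.6 in the controls, and their median 2.15 to 3.8 with pterostilbene and 2.25 to 4.2 in the controls. The planned gauge was the mouse control probe sets alone, whose highest signal was 2.5 to 8.8 with pterostilbene and 2.9 to 7 in the controls. The strain label was checked with mating-type genes. The α-specific genes *STE3*, *MF(ALPHA)1*, *MF(ALPHA)2* and *SAG1* exceeded all negative controls on all 6 arrays, the lowest signal being 53.9 for *MF(ALPHA)2*. All of them were lower with pterostilbene, *MF(ALPHA)2* 26.6-fold, *SAG1* 18.6-fold, *STE3* 8.35-fold and *MF(ALPHA)1* 2.47-fold. By log2 fold change *MF(ALPHA)2* ranked last and *SAG1* next to last of 5656 genes. The a-specific receptor gene *STE2* had 13.2 to 22.6 with pterostilbene and 29.4 to 46 in the controls, near the background. *AGA2*, also a-specific, had 20.5 to 26.3 with pterostilbene and 28.3 to 29.6 in the controls. *BAR1* had 31.1 to 67.1 with pterostilbene and 8.1 to 21 in the controls. In contrast *MFA1*, a gene of the a-factor pheromone, had 464.8 to 622.2 with pterostilbene and 213.6 to 261.1 in the controls. These *MFA1* signals came from the brighter of its 2 probe sets. *MFA2* had 132.2 to 212.8 and 80.3 to 148.3, above all negative controls on all 6 arrays. The a-specific genes thus did not all lie near the background.

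The words rose and fell are kept for genes where limma's moderated test gave a Benjamini-Hochberg adjusted p under 0.05 over all 9275 probe sets. With pterostilbene 6 of the 10 genes rose, the other 4 did not pass and no gene fell. On the same arrays 33.5% of all probe sets rose and 14% fell, so that 47.4% changed in either direction and 52.6% did not pass. Over the 5656 genes, each at its brightest probe set, 35.8% rose and 18.4% fell. The 6 genes that rose, *XBP1*, *YGP1*, *SPI1*, *SIP18*, *GRE1* and *DDR2*, each did so by more than 2-fold, a size that 23.6% of all probe sets reached. Those that did not pass were both activator genes, *MSN2* and *MSN4*, with *GAD1* and *RTN2*. The median log2 fold change of the 10 genes was 1.32. In 7 of the 10 genes the lowest pterostilbene signal exceeded the highest control signal, which held for 41.4% of all probe sets. In RNA from whole cultures, a transcript made by more cells and a transcript made at a higher level per cell cannot be told apart.

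**Figure D1:**
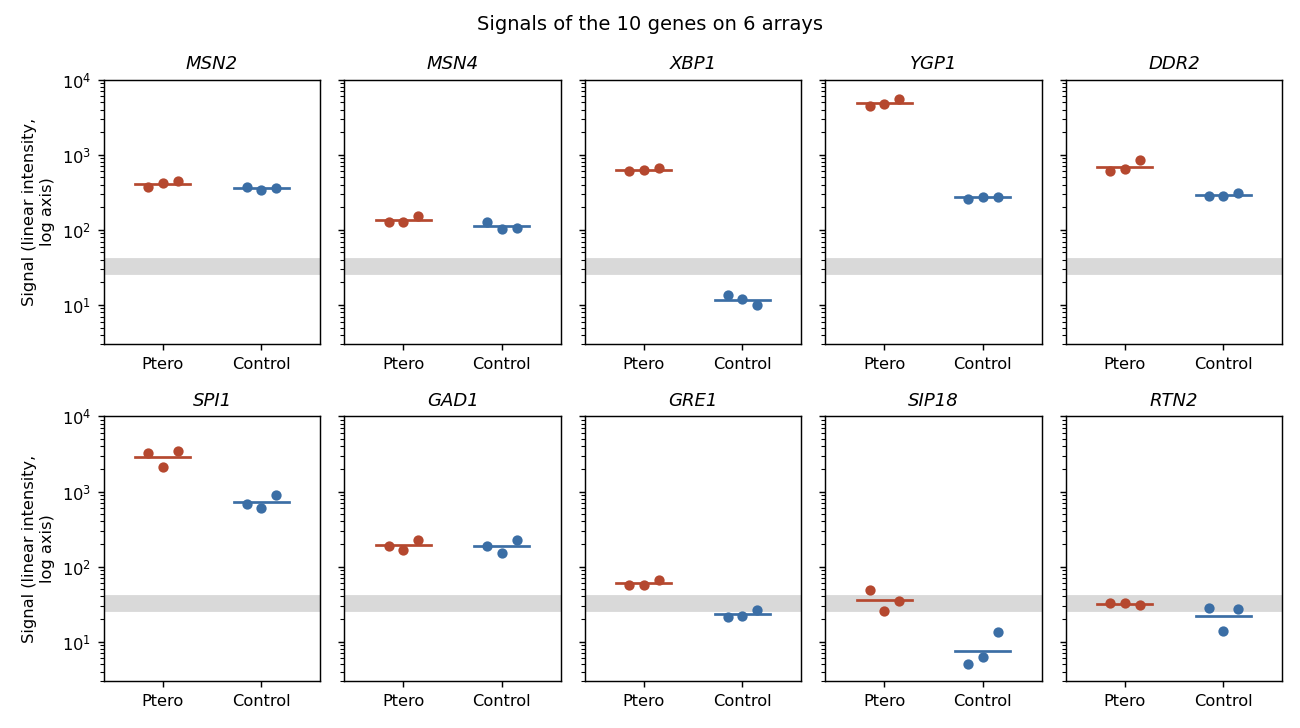
Signals of the 10 genes (linear intensity on a log axis) on the 3 pterostilbene arrays (Ptero, left) and the 3 control arrays (right) of each panel. Points are arrays, horizontal lines are geometric means, and the grey band spans the highest signals of the negative control probe sets on the 6 arrays, 25.5 to 40.9. The groups of *XBP1* and *YGP1* lie far apart, those of *MSN2*, *MSN4* and *GAD1* overlap, and the control signals of *XBP1*, *GRE1*, *SIP18* and *RTN2* lie in or under the band.

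The genes of the activators themselves stayed close to their control signals. *MSN2* (YMR037C) had signals of 367.1, 420.7 and 448.2 on the pterostilbene arrays, against 376.7, 338.8 and 361.2 on the control arrays. The lowest pterostilbene signal lay below the highest control signal, so the groups overlapped. The log2 fold change was 0.20 (SE 0.12, limma adjusted p = 0.22), with a 95% interval of -0.09 to 0.48. *MSN4* (YKL062W) had signals of 126, 125.5 and 152.5 with pterostilbene, against 126.9, 103.7 and 107.2 in the controls. Its groups overlapped as well, through control array A, and the log2 fold change was 0.26 (SE 0.14, limma adjusted p = 0.17), with a 95% interval of -0.08 to 0.60. Both values were near the 0.22 of the median gene, and both intervals leave out a 2-fold change. The sign of both depended on scaling. After centring on 5 reference genes, *MSN2* had 0.33 (limma adjusted p = 0.029) and *MSN4* 0.39 (limma adjusted p = 0.043), while after centring each array on its median they had -0.26 and -0.19 and after quantile normalization -0.11 and -0.23, none of these 4 values passing the test.

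A rise with control signals in the background range was found in *XBP1* (YIL101C), which encodes a DNA-binding repressor made under stress and in stationary phase and known to restrain G1 cyclin genes. Its signals were 607.5, 623.2 and 662.9 with pterostilbene, against 13.5, 12.1 and 10.1 in the controls. Each pterostilbene signal was above all negative controls, whereas each control signal lay below the brightest of them and above the mouse control probe sets. The log2 fold change was 5.74 (SE 0.14, limma adjusted p = 5.5e-05), or 53.4-fold. With signals raised to the brightest negative control of each array it was 4.27, or 19.3-fold (limma adjusted p = 3.3e-08), so its size and its order against the other genes rest on control signals in the background range.

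*YGP1* (YNL160W), a gene of a secreted glycoprotein that is made when nutrients run low, rose as well, with control signals far above the background. It had 4473.2, 4798.3 and 5581.9 with pterostilbene, against 259, 275.9 and 275.8 in the controls. Mean signals were 4951 ± 570 with pterostilbene and 270.2 ± 9.73 in the controls (SD, n = 3 each), which is a log2 fold change of 4.19 (SE 0.12, limma adjusted p = 8.1e-05) or 18.3-fold. It ranked 35th of 5656 genes. Under all alternatives tried the fold was at least 13.3.

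*SPI1* (YER150W) encodes a cell wall protein anchored by glycosylphosphatidylinositol that is induced in stationary phase and by weak acids. It had signals of 3262.2, 2128.6 and 3460.2 with pterostilbene, against 682.2, 610.7 and 901.4 in the controls. The groups were far apart, although pterostilbene array B was lower than the other two. On the log2 scale it rose by 2.0 (SE 0.25, limma adjusted p = 0.0019), with a 95% interval of 1.39 to 2.61.

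*DDR2* (YOL052C-A), a small multistress gene first known from DNA damage and heat shock, had 615.6, 653.4 and 847.4 with pterostilbene, against 284.8, 283.1 and 306.6 in the controls. All pterostilbene signals were higher, at 705 ± 124, against 292 ± 13.1 in the controls (SD, n = 3 each). The log2 fold change was 1.26 (SE 0.15, limma adjusted p = 0.0017), a rise of 2.40-fold that became 1.75-fold after median centring and still passed the test.

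Both hydrophilin genes rose, from control signals under the brightest negative control of each array. *GRE1* (YPL223C), which osmotic and drying stress induce, had 56.8, 57.2 and 67.2 with pterostilbene, against 21.2, 22.3 and 26.2 in the controls. Its pterostilbene signals were above all negative controls on all 3 arrays and its control signals on none. The control signals did exceed the mouse control probe sets on all 3 control arrays. On the log2 scale it rose by 1.38 (SE 0.13, limma adjusted p = 8.5e-04). It kept its call under all alternatives, with 0.88 on the log2 scale (limma adjusted p = 6.2e-04) when signals were raised to the brightest negative control and 0.70 (limma adjusted p = 0.0077) after quantile normalization. *SIP18* (YMR175W), a duplicate of *GRE1* whose product binds phospholipids, had 48.4, 26 and 35.2 with pterostilbene, against 5, 6.2 and 13.6 in the controls. Only pterostilbene array A exceeded the brightest negative control of its array, and control arrays A and B did not exceed the mouse control probe sets. The log2 fold change of 2.24 (SE 0.44, limma adjusted p = 0.0090) did not hold when signals were raised to the brightest negative control (0.28, limma adjusted p = 0.24) or to the 20th percentile of all signals, 22.6 (0.65, limma adjusted p = 0.098). When all genes were split into 10 equal classes by mean signal, *GRE1* and *SIP18* lay in the dimmest, whose median log2 fold change was 0.73 and of which 37.9% rose.

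Hydrophilin genes outside the set were mixed. Of 5 examined, 3 rose and the other 2 did not pass, with a median log2 fold change of 1.33. Over all genes 35.8% rose and 18.4% fell. *ROQ1*, which is now known mainly as a regulator of the ubiquitin ligase Ubr1p, had 2341.6, 1753.1 and 2639.7 with pterostilbene, against 102.4, 92 and 113.7 in the controls, a log2 fold change of 4.43 (SE 0.18, limma adjusted p = 1.1e-04). *HSP12*, a small membrane-associated stress protein and itself a known Msn2p/Msn4p target, had 3721.2, 1985.8 and 3935.9 with pterostilbene, against 70.9, 68 and 53.3 in the controls, a 48.4-fold rise (limma adjusted p = 1.8e-04). *STF2*, known for its part in tolerance to drying, had 2776.5, 2497.7 and 2039 with pterostilbene, against 915.8, 911.7 and 1061.7 in the controls, a log2 fold change of 1.33 (SE 0.15, limma adjusted p = 0.0014). In these 3 genes every pterostilbene signal was above every control signal, with pterostilbene array B the lowest for *ROQ1* and *HSP12* but not for *STF2*. Those that did not pass were *NOP6* (-0.25) and *GON7* (-0.33) on the log2 scale, and both passed as lower after quantile normalization and after median centring.

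The other genes of the set did not pass the test. *GAD1* (YMR250W), glutamate decarboxylase, the enzyme that makes γ-aminobutyrate from glutamate and is known for a part in oxidative stress tolerance, had 189.7, 164.2 and 223.7 with pterostilbene, against 190.9, 153.8 and 224.4 in the controls. The groups nearly coincided, with a log2 fold change of 0.03 (SE 0.19, limma adjusted p = 0.92) and a 95% interval of -0.45 to 0.50. *RTN2* (YDL204W), which encodes a reticulon, a protein that curves membranes of the endoplasmic reticulum, had 33.1, 32.8 and 30.7 with pterostilbene, against 28.4, 13.9 and 27.2 in the controls. Its groups did not overlap, but 2 of its pterostilbene signals and none of its control signals exceeded the brightest negative control. The *RTN2* signals exceeded the mouse control probe sets on every array. The log2 fold change was 0.54 (SE 0.29, limma adjusted p = 0.18), with a 95% interval of -0.19 to 1.28, and it lay below the median of the dimmest class, to which *RTN2* belongs. A 2-fold change lay within that interval, so at this brightness it could not be told from none.

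**Figure D2:**
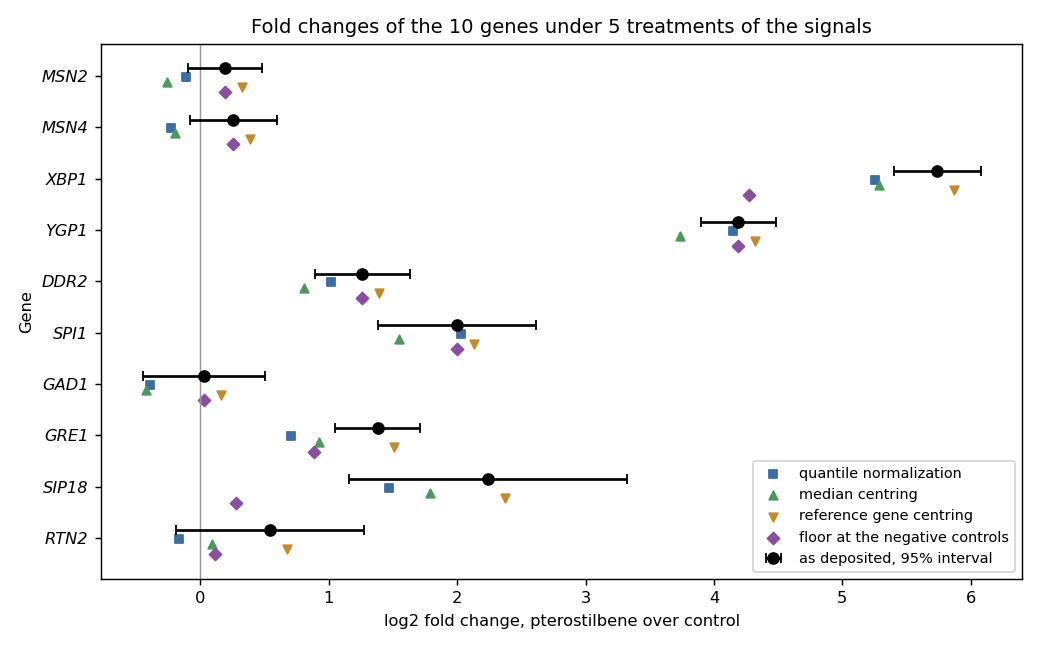
Log2 fold changes, pterostilbene over control, of the 10 genes. Black points with 95% intervals come from limma on the signals as deposited, and coloured markers are the same fit after quantile normalization, median centring, reference gene centring, and raising of signals to the brightest negative control. *MSN2*, *MSN4* and *GAD1* lie on both sides of 0, *RTN2* between -0.16 and 0.68, *SIP18* between 0.28 and 2.37, and *XBP1* between 4.27 and 5.87.

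Several of these genes belong to duplicate pairs, and the members of a pair were compared by the log2 ratio of their signals on each array, in which a factor common to the whole array cancels but a trend with brightness does not. With 3 arrays against 3, an exact two-sided permutation test cannot give a p below 0.1, so none of the 6 pairs compared could pass the threshold. The median log2 fold change was 0.73 in the dimmest of the 10 classes of mean signal and -0.37 in the brightest. The ratio of *MSN2* to *MSN4* was 1.54 to 1.75 with pterostilbene and 1.57 to 1.75 in the controls, a difference of -0.06 on the log2 scale (exact p = 0.5, adjusted over 6 pairs 0.5). The log2 fold change of *YGP1* was 1.08 above that of its duplicate *SPS100*, a gene of spore wall maturation (exact p = 0.1, adjusted 0.15). *SPS100* itself rose, with 186.1, 192 and 132.4 on the pterostilbene arrays, against 18.9, 18.8 and 20.8 in the controls, a log2 fold change of 3.11 (SE 0.17, limma adjusted p = 1.9e-04). Its control signals were below the brightest negative control of each array, and the difference was 1.83 with signals raised to that control and 1.63 after quantile normalization. For *SPI1* against *SED1*, an abundant structural protein of the cell wall, the difference was 1.25 (exact p = 0.1, adjusted 0.15), and *SED1* had a log2 fold change of 0.75 (SE 0.12, limma adjusted p = 0.0047). Between *DDR2* and *HOR7*, a gene of hyperosmotic stress, it was 0.75 (exact p = 0.1, adjusted 0.15) and 0.20 after quantile normalization, and *HOR7* had a log2 fold change of 0.51 (SE 0.11, limma adjusted p = 0.012). In these 3 pairs the deposited ratios of the groups did not overlap. *RTN1*, the main reticulon gene, had 3697.4, 4122.5 and 4107.4 with pterostilbene, against 5512.8, 5499.4 and 5851.1 in the controls, and fell with a log2 fold change of -0.50 (SE 0.10, limma adjusted p = 0.0089). The difference between *RTN2* and *RTN1* was 1.05 (exact p = 0.1, adjusted 0.15), with *RTN2* in the background range, and 0.086 after quantile normalization. For *GRE1* and *SIP18* the difference was -0.86 (exact p = 0.2, adjusted 0.24), the groups overlapped, and the sign turned to 0.60 with signals raised to the brightest negative control.

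**Figure D3:**
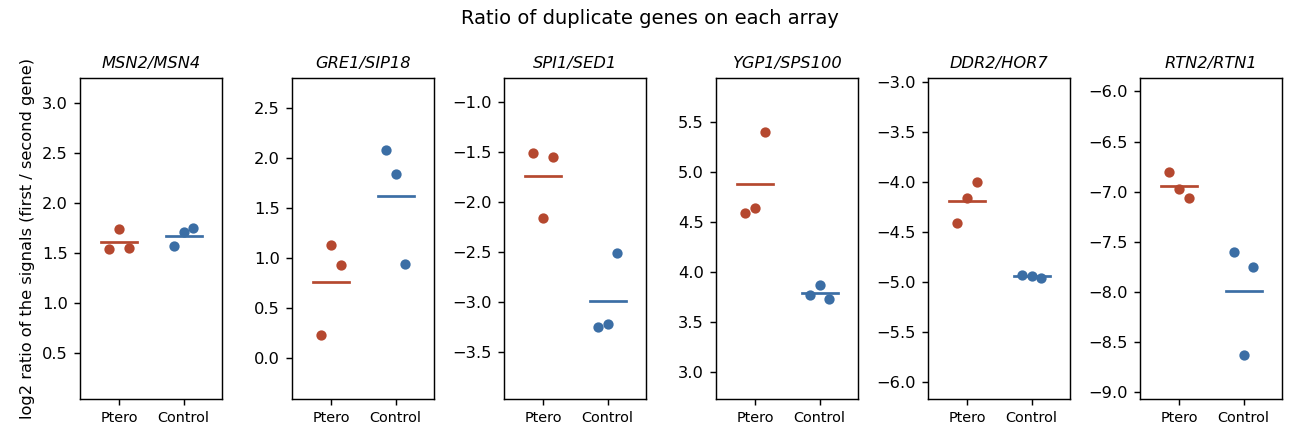
Log2 ratio of the signals of 6 duplicate pairs, first gene over second, on the 3 pterostilbene arrays (Ptero, left) and the 3 control arrays (right). Points are arrays and lines are means, and each panel spans the same height on the log2 scale. The groups do not overlap for *SPI1*/*SED1*, *YGP1*/*SPS100*, *DDR2*/*HOR7* and *RTN2*/*RTN1*, and overlap for *MSN2*/*MSN4* and *GRE1*/*SIP18*.

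Known partners of the set moved in both directions. Of 15 duplicates and close partners, 7 rose and 3 fell, where 35.8% of all genes rose and 18.4% fell. *GRE2*, a methylglyoxal reductase gene named with *GRE1* for its response to stress, had 2602.3, 3088.1 and 3163.9 with pterostilbene, against 182.8, 99 and 240.5 in the controls, a log2 fold change of 4.17 (SE 0.34, limma adjusted p = 5.2e-04). The aldose reductase gene *GRE3* had 0.57 (limma adjusted p = 0.020). Downstream of *GAD1* in the same pathway, *UGA2*, succinate semialdehyde dehydrogenase, had 430.7, 545.1 and 521.6 with pterostilbene, against 195.5, 217.8 and 242.9 in the controls, a log2 fold change of 1.19 (SE 0.14, limma adjusted p = 0.0017), and *UGA1*, γ-aminobutyrate transaminase, had 0.71 (SE 0.16, limma adjusted p = 0.015). Both steps after *GAD1* thus passed the test as higher with the signals as deposited, while the *GAD1* signals overlapped. *UGA3* and *UGA4*, also among the 15, did not pass. They had log2 fold changes of 0.18 (limma adjusted p = 0.14) and 0.49 (limma adjusted p = 0.14). *CLN1*, a G1 cyclin gene that Xbp1p is known to repress, had 78.1, 80 and 84.7 with pterostilbene, against 239.1, 239.7 and 206.6 in the controls, a log2 fold change of -1.49 (SE 0.11, limma adjusted p = 3.7e-04), and *CLN3*, the most upstream G1 cyclin, had -0.55 (SE 0.11, limma adjusted p = 0.0093). After median centring 3 of the 15 were higher and 7 lower, where 19.3% of all genes were higher and 39% lower.

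Beyond the set, 35 other genes known as Msn2p/Msn4p targets were examined including *HSP12* and *GRE3*. Rises were found in 25, falls in 5 and no call in 5, with a median log2 fold change of 0.89, and after median centring 19 rose and 8 fell. Over all genes 35.8% rose and 18.4% fell, and after median centring 19.3% were higher and 39% lower. The largest rises, besides *HSP12*, were in *SSA4*, a stress-induced Hsp70 (4.68), *HSP26*, a small heat shock protein (3.32), and *HSP78*, a mitochondrial disaggregase (2.73), on the log2 scale. All 6 chaperone genes of the list rose, with a median of 2.66. These chaperone genes are also known targets of the heat shock factor Hsf1p. Of 16 genes of storage carbohydrate and sugar enzymes, 7 rose and 5 fell, with a median of 0.22, and after median centring 3 rose and 7 fell. Higher with the signals as deposited were the 4 trehalose genes of the list, *TPS1* (0.77), *TPS2* (0.51) and *TSL1* (0.91) of the synthase complex and the trehalase *NTH1* (0.80). *GDB1*, the glycogen debranching enzyme (0.89), *HXK1*, a hexokinase (0.49), and *NQM1*, a transaldolase (2.10), were higher as well, all on the log2 scale. The control signals of *NQM1* were 38.6, 30.1 and 48.9, above all negative controls on 2 of the 3 control arrays. *GPD1*, glycerol-3-phosphate dehydrogenase, had 1678.6, 1769.9 and 1838.6 with pterostilbene, against 3749.2, 3562 and 3494.2 in the controls, and fell by 1.03 on the log2 scale (SE 0.093, limma adjusted p = 7.2e-04). *GSY2*, glycogen synthase (-0.87), and *GLC3*, the glycogen branching enzyme (-0.74), fell as well, with *SOL4* (-0.56) and *PGM2* (-0.32). The grouping into chaperone and carbohydrate genes was made after the values were seen.

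Of 18 measured genes whose products regulate Msn2p and Msn4p or act beside them, 5 rose and none fell, with a median log2 fold change of 0.17. Over all genes 35.8% rose and 18.4% fell. Across the alternatives 4 to 8 of the 18 were higher, so their place against the share of all genes depended on the setting. The 5 that rose with the signals as deposited were 4 of the 5 genes of the Rim15p branch and *YAK1*. That branch is a kinase pathway that promotes entry into quiescence, and *YAK1* encodes a kinase that acts opposite to protein kinase A. This grouping too was made after the values were seen. *GIS1*, a stress-related factor downstream of Rim15p, had 289.2, 336.8 and 237.2 with pterostilbene, against 67.4, 86.6 and 75 in the controls, a log2 fold change of 1.91 (SE 0.17, limma adjusted p = 7.3e-04). Its relative *RPH1*, a histone demethylase gene, had 1.19 (SE 0.12, limma adjusted p = 9.9e-04), and *IGO1*, an endosulfine phosphorylated by Rim15p, had 1.21 (SE 0.11, limma adjusted p = 7.2e-04). *RIM15* itself had 294.6, 370.9 and 244.2 with pterostilbene, against 151.7, 190.8 and 142.7 in the controls, a log2 fold change of 0.90 (SE 0.20, limma adjusted p = 0.014), and *YAK1* had 0.79 (SE 0.10, limma adjusted p = 0.0023). None of the 3 measured genes of protein kinase A passed the test, with *BCY1*, the regulatory subunit, at 0.04, *TPK2* at -0.25 and *TPK3* at -0.30 on the log2 scale, and after median centring all 3 passed as lower. The exportin gene *MSN5*, whose product carries Msn2p and Msn4p out of the nucleus, was at 0.07 (SE 0.11, limma adjusted p = 0.64). After median centring 4 of the 18 were higher and 9 lower, and after reference gene centring 8 were higher and none lower. Of all genes, 19.3% were higher and 39% lower after median centring, and 43.7% were higher and 14.5% lower after reference gene centring.

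**Figure D4:**
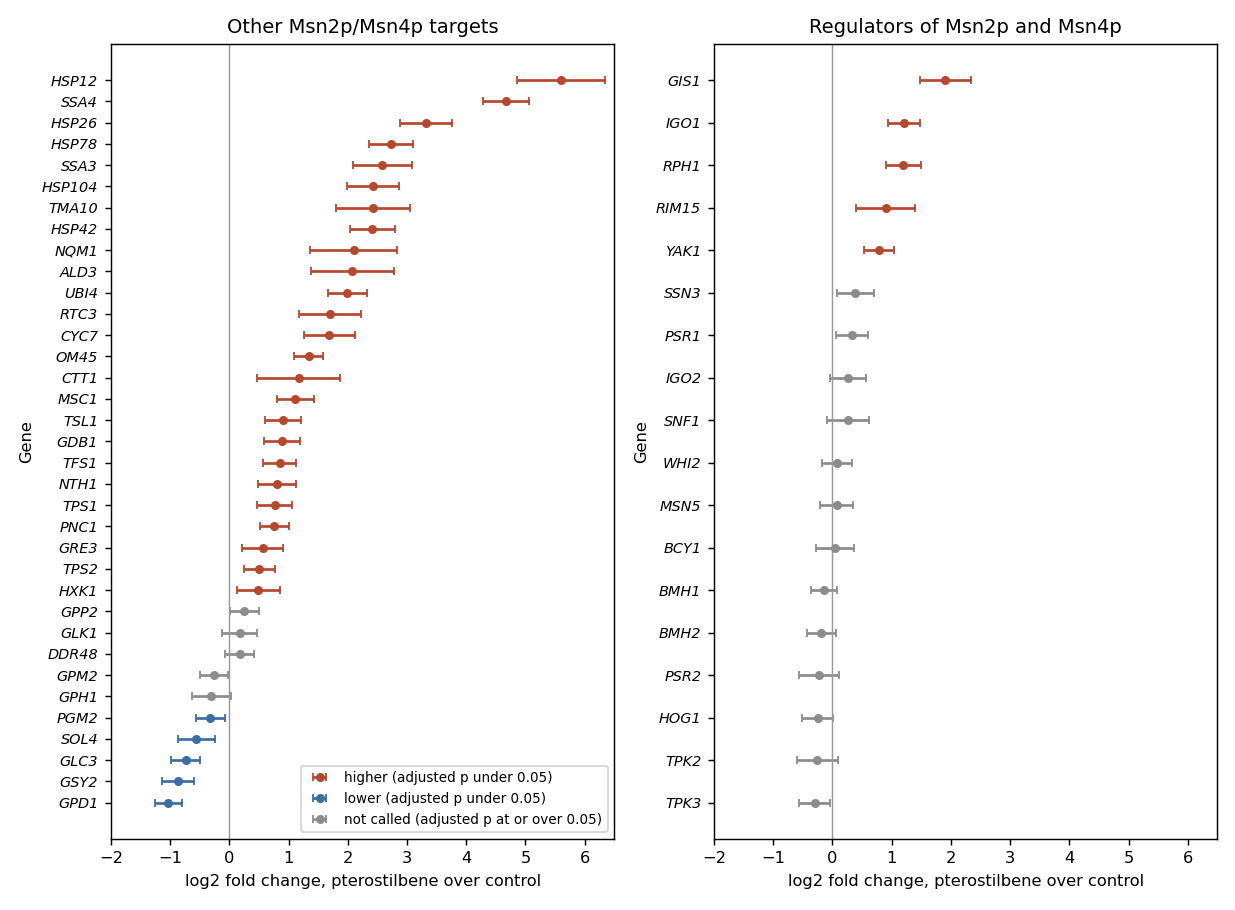
Log2 fold changes, pterostilbene over control, with 95% intervals from limma for 35 other Msn2p/Msn4p targets (left) and 18 regulators and partner factors (right), sorted by value. Red marks genes that rose (25 and 5), blue those that fell (5 and none) and grey those that did not pass the test, and chaperone genes lie near the top of the left panel.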

How the data were processed

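Total RNA of 6 cultures was measured on Yeast Genome S98 arrays (Affymetrix), 1 array each. The deposited values are linear intensity signals, 1 per probe set and array, made by the authors with GCOS 1.1 according to the submitters' notes. The summarisation algorithm and scaling target are not given in the sources used here. The mean of the deposited signals without the lowest and highest 2% was 500.4 to 500.5 on each array. The number of arrays limits the precision.

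Signals were converted to log2, with the 23 signals of 0 raised to the smallest positive signal, 0.1. The comparison used lmFit and eBayes of limma 3.58.1 (R 4.3.3), two-sided, with Benjamini-Hochberg adjustment over 9275 probe sets. In the platform annotation 6504 of these had 1 gene, 328 several and 2443 none. Genes with more than 1 probe set were represented by the brightest. All 5656 genes were found in the RefSeq table of assembly R64, which supplied the names. The code was tested on simulated data. A listed gene is not reported here.

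Alternatives were quantile normalization, median centring, centring on *ACT1*, *ALG9*, *TAF10*, *TFC1* and *UBC6*, a pseudocount of 8.6, a floor of 22.6, removal of the dimmest 25%, trend and robust moderation, the methods' t-test, averaged probe sets, the replicate letter as a block, each array left out and, added after seeing the data, a floor at the brightest negative control of each array. The members and lists were chosen with earlier results of these data known. Named were all members, genes of the duplicate pairs, and up to 4 rises and 3 falls per list. *YAK1*, *UGA1*, *UGA3*, *UGA4*, *TPS1*, *TPS2*, *TSL1*, *NTH1*, *GDB1*, *HXK1*, *NQM1*, *GRE3*, *SOL4*, *PGM2*, *NOP6*, *GON7*, *BCY1*, *TPK2*, *TPK3*, *MSN5*, the mating-type genes and the neighbours in the closing section were named outside this rule after their values were seen.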

Additional observations from a re-analysis of the deposited data

Results flagged for a closer look

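Control probe sets outside the comparison of genes differed between the groups. The 12 probe sets of poly-A control transcripts had geometric mean signals of 186 to 258 on the pterostilbene arrays and 39.2 to 52.7 on the control arrays, a 5.11-fold difference. The 10 control probe sets of ribosomal RNA had 505 to 570.3 on the pterostilbene arrays and 41.8 to 142 on the control arrays, a 6.81-fold difference. The negative controls differed by 0.949-fold. These values are given as measured, and their part in the changes of the stress genes was not tested.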

How the results depend on the processing

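The count of stress and hydrophilin genes that rose was 6 under all alternatives except 8 after reference gene centring, 5 with either floor and 5 of 8 without the dimmest 25% of probe sets, which removed *SIP18* and *RTN2*. No gene of the set fell under any alternative. Median centring gave -0.26 for *MSN2*, -0.19 for *MSN4* and -0.43 for *GAD1*. Quantile normalization gave -0.11, -0.23 and -0.39 for these genes in the same order and -0.16 for *RTN2*. Reference gene centring gave 0.33 for *MSN2* and 0.39 for *MSN4*, both passing the test. *GAD1* ranged from -0.12 to 0.16 with each array left out. *SIP18* had 0.65 with the floor at the 20th percentile and 0.28 with the floor at the negative controls. The *MSN2*/*MSN4* difference was 0.11 after quantile normalization, and the *GRE1*/*SIP18* difference was 0.70 and 0.60 with these floors. The cause of these changes was not tested. Median centring gave 8 lower targets, 3 higher and 7 lower partners and 9 lower regulators. Lower regulators numbered 3 after quantile normalization, 2 with the floor at the 20th percentile, 1 without the dimmest 25% and 2 by the methods' t-test, and 8 were higher after reference gene centring. Lower hydrophilins outside the set numbered 2 after quantile normalization, 2 after median centring, 1 without the dimmest 25% and 0 to 1 with each array left out, the 1 arising without pterostilbene replicate C.

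The labels do not say whether the replicate letters pair the cultures. Deviations of arrays with the same letter correlated at -0.02, -0.04 and -0.01. These values show no shared effect of a letter but cannot tell whether cultures of a letter were handled together. With the letter as a replicate block, 6 of the 10 genes rose, 22 targets rose and 4 fell, 5 regulators rose, 3 hydrophilins outside the set rose, and 5 partners rose and 3 fell.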

Other observations

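Genes next to the members on the chromosome were not part of the set and were examined after the values were seen. Of 20 neighbouring protein-coding genes, 19 were measured, of which 9 rose and 3 fell, with a median log2 fold change of 0.58. Over all genes 35.8% rose and 18.4% fell, with a median of 0.22. *SGA1*, the sporulation-specific glucoamylase and a neighbour of *XBP1*, had 592, 547.4 and 573.3 with pterostilbene, against 66.1, 65.3 and 57.1 in the controls, a log2 fold change of 3.19 (SE 0.10, limma adjusted p = 9.9e-05). Its groups were far apart. *PAI3*, an inhibitor of vacuolar proteinase A and a neighbour of *SIP18*, had 203.3, 208.4 and 297 with pterostilbene, against 72.4, 80.1 and 69.7 in the controls, a log2 fold change of 1.65 (SE 0.18, limma adjusted p = 0.0012). *MIH1*, a mitotic phosphatase gene beside *MSN2*, had a log2 fold change of 1.82 (SE 0.14, limma adjusted p = 4.2e-04), while *MSN2* did not pass the test.

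The lowest of the 3 pterostilbene signals was on array A for 5 of the 10 genes, 14 of the 35 other targets and 47.2% of all genes, and on array B for 4 of the 10 genes, 14 of the 35 other targets and 28.7% of all genes.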
